A study of Mus musculus with 4 samples.

Results

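RGS proteins, the regulators of G-protein signalling, were examined on 4 expression arrays of mouse intestinal cells through 9 genes of the family, Rgs1, Rgs2, Rgs3, Rgs4, Rgs5, Rgs10, Rgs16, Rgs18 and Rgs19. They were taken by symbol from the 18193 genes that the annotation names on the array, and had 24 probe sets between them. The series asked how the inflammatory cytokine interleukin-17A (IL-17A) and fibroblast growth factor 2 (FGF2) act together on intestinal epithelium in wound repair. Cells from mouse intestinal crypts were plated on fibronectin in medium with serum and insulin. There was 1 array for each of 4 groups: cells given IL-17A (50 ng/ml) plus FGF2 (5 ng/ml), FGF2 (5 ng/ml) alone or IL-17A (50 ng/ml) alone, each for 6 h, and untreated cells. Strain, age and the number of animals are not given in the sources used here. The members were chosen with their values on these arrays known, so those values are given as a description, and there is no test.

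A G protein is active while its alpha subunit holds GTP, and RGS proteins speed the hydrolysis of that GTP, which ends the signal of a G-protein coupled receptor. Most small RGS proteins, the R4 subfamily of Rgs1, Rgs2, Rgs3, Rgs4, Rgs5, Rgs16 and Rgs18, consist of little more than the catalytic RGS domain and act on Gi and Gq, with Rgs2 preferring Gq. Rgs10 belongs to the R12 and Rgs19 to the RZ subfamily, both of which act on the Gi class. In tissues, Rgs1 and Rgs18 are known from blood cells, Rgs5 from pericytes and vascular smooth muscle, and Rgs4 from neurons and smooth muscle.

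The deposited values are log2 signals scaled by array, and signals are given here as their antilogs. A probe set was called measured where it exceeded 89.8, the median signal of all 4 arrays, on at least 1 array, and lower signals were raised to this floor before a ratio was taken. With 1 array per group there is no replicate error. As a yardstick, each factor has a reading without the other factor and a reading on top of it, and the difference between the readings gave the spread (SD) of a log2 ratio. It was 0.29 where a gene's mean log2 signal lay below 8, 0.21 between 8 and 10, 0.13 between 10 and 12 and 0.09 beyond. A true interaction of the factors is part of this spread. Signals raised to the floor enter it as equal values, which can make the spread of dim genes too small. Ratios from different probe sets of a gene gave a within-gene SD of 0.21 to 0.25.

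All 6 of 6 epithelial markers were over the floor on every array, and so were 6 of 6 smooth muscle, 6 of 6 fibroblast and 6 of 6 endothelial markers. Of the pericyte markers 6 of 7 were measured, 5 of them on every array and Anpep on the 2 arrays without FGF2. Of the T cell markers, Cd3d, Cd3e, Cd3g, Cd247 and Cd2 were under the floor on all 4 arrays, as were all 3 B cell markers on the array. Of the 5 general leukocyte markers, all 5 were over the floor on every array. In such a mixture, fewer cells of a type and less RNA per cell cannot be told apart.

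Of the 9 members, 8 were measured, and Rgs1 was the member that stood at least 2-fold apart, on both arrays with FGF2. FGF2 against untreated cells put 1 of 8 measured members past 2-fold, beside 1.44% of 12258 measured genes. Both factors against untreated cells did so for 1 of 8, beside 2.64%, and both factors against IL-17A alone for 1 of 8, beside 1.4%. IL-17A against untreated cells (0 of 8, beside 0.604%) and both factors against FGF2 alone (0 of 8, beside 0.636%) gave none. At 1.5-fold, Rgs4, Rgs5 and Rgs16 were also counted. FGF2 then gave 3 of 8 (beside 7.16%), both factors 3 of 8 (beside 9.86%) and IL-17A 1 of 8 (beside 3.39%). Both against IL-17A gave 4 of 8 (beside 6.89%) and both against FGF2 0 of 8 (beside 3.88%). Since the members were chosen on these arrays, nothing is read from these shares. The median log2 ratio of the 8 measured members was 0.05 for FGF2 against untreated, beside -0.01 over all measured genes, so members above and below 0 balanced, with 4 of 8 on each side.

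**Figure D1:**
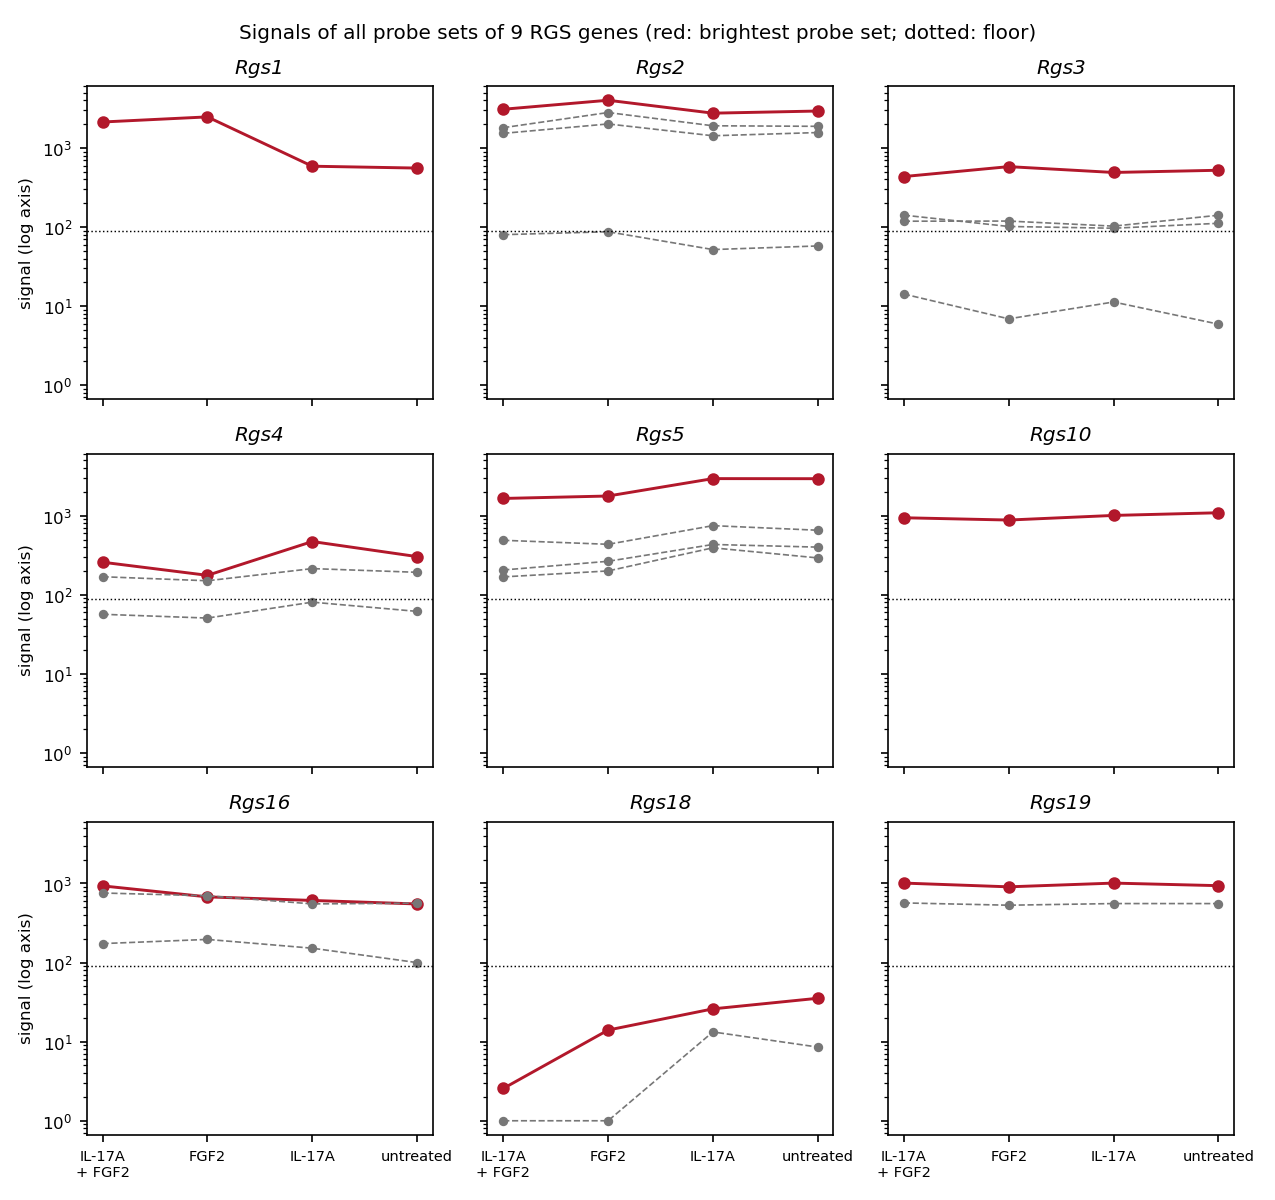
Signal (log axis) of every probe set of the 9 RGS genes on the 4 arrays, 1 array per group. Red is the probe set with the highest mean in each gene, grey the others, lines join the values of a probe set, and the dotted line is the floor of 89.8. Rgs1 stands high on both arrays with FGF2, Rgs5 stands low on them, and both probe sets of Rgs18 lie under the floor throughout.

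Rgs1, which limits chemokine-driven migration in lymphocytes, had a signal of 2129 with both factors, 2470 with FGF2 and 588 with IL-17A, against 557 in untreated cells. The arrays with FGF2 were thus high and those without it low, with or without IL-17A. Rgs1 was 4.44-fold higher with FGF2 than in untreated cells (log2 ratio 2.15) and 3.62-fold higher with both factors than with IL-17A alone (1.86), each larger than the spread of 0.13. The first ratio ranked 10 from the top among 12258 measured genes and the second 12. IL-17A alone left a log2 ratio of 0.08 to untreated cells, and both factors against FGF2 alone a ratio of -0.21. Rgs1 has 1 probe set on the array, so no other probe set bears on its values.

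Levels of leukocyte markers are relevant beside Rgs1. The summed signal of the 5 general leukocyte markers was 978 with both factors, 891 with FGF2 and 981 with IL-17A, against 1040 in untreated cells. Ptprc, the pan-leukocyte phosphatase CD45, had 95.0 with both factors, 105 with FGF2 and 122 with IL-17A, against 151 in untreated cells. Ptprc was thus lower on the arrays where Rgs1 was high, and lay just over the floor there. Among the 5 general leukocyte markers, 4 were below 0 and 1 above for FGF2 against untreated cells (median log2 ratio -0.33). For both factors against IL-17A alone, 2 were below 0 and 3 above (median 0.01), so the list did not follow Ptprc there. Of the T cell markers on the array, 2 of 7 were measured. Thy1, which fibroblasts and neurons also express, had 280 with both factors, 295 with FGF2 and 336 with IL-17A, against 407 in untreated cells. Cd8a had 113 with both factors, 53.3 with FGF2 and 97.4 with IL-17A, against 97.0 in untreated cells, all near or under the floor. The macrophage and monocyte markers summed to 6004 with both factors, 5597 with FGF2 and 4545 with IL-17A, against 4134 in untreated cells. Most of that range was Cd14, the coreceptor for lipopolysaccharide, at 3081 with both factors, 2640 with FGF2 and 1318 with IL-17A, against 862 in untreated cells, and the median log2 ratio of the 7 measured markers for FGF2 against untreated cells was -0.03. Of the mast cell markers, Kit, which other cells of the gut also express, had 988 with both factors, 945 with FGF2 and 646 with IL-17A, against 619 in untreated cells. Mcpt2, a mast cell protease, had 130 with both factors, 224 with FGF2 and 145 with IL-17A, against 183 in untreated cells, so unlike Kit it was lower with both factors than in untreated cells. The other 6 mast cell markers, Cpa3, Mcpt1, Mcpt4, Tpsb2, Fcer1a and Ms4a2, never passed the floor. The part of these cells in the Rgs1 values was not tested.

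The genes whose 3 log2 ratios to untreated cells lay nearest to those of Rgs1, among 11858 measured genes outside the family, were Slc14a1, Trbv1 and Cck. Slc14a1, a urea transporter, lay at a distance of 0.15, and had 339 with both factors and 365 with FGF2, against 86.1 with IL-17A and 82.3 in untreated cells. The last 2 of these are under the floor, so its ratios for both arrays with FGF2 are lower bounds, its ratio of IL-17A to untreated cells was set to 0, and its distance depends on the floor. Trbv1, a T cell receptor segment, lay at 0.23, and had 616 with both factors and 744 with FGF2, against 173 with IL-17A and 150 in untreated cells. Cck, the hormone cholecystokinin, lay at 0.31, and had 3738 with both factors and 4103 with FGF2, against 1122 with IL-17A and 1100 in untreated cells. The likeness is over 3 ratios that share the untreated array.

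Rgs2, whose product restrains Gq signals and vascular tone, had a signal of 3085 with both factors, 4010 with FGF2 and 2753 with IL-17A, against 2930 in untreated cells. The array with FGF2 alone stood highest and the other 3 lay close together. The same held for its next probe sets, at 1803 with both factors, 2804 with FGF2 and 1907 with IL-17A, against 1877 in untreated cells, and at 1529 with both factors, 2011 with FGF2 and 1426 with IL-17A, against 1566 in untreated cells. Rgs2 was thus 1.37-, 1.49- and 1.28-fold higher with FGF2 than in untreated cells in its 3 measured probe sets. The dimmest of these can match related transcripts. Both factors against IL-17A gave log2 ratios of 0.16, -0.08 and 0.10, which are near the spread of 0.13. Both factors against FGF2 alone gave -0.38, -0.64 and -0.40. The readings of FGF2 differed by -0.29, -0.66 and -0.26 in log2 units. An interaction of the factors and a deviation of a single array cannot be told apart here. The remaining probe set of Rgs2 stayed under the floor.

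Rgs16, an inducible regulator of Gi and Gq signals, was highest with both factors in its brightest probe set, with signals of 933 with both factors, 677 with FGF2 and 610 with IL-17A, against 551 in untreated cells. It was 1.69-fold higher with both factors than in untreated cells, 1.53-fold higher than with IL-17A and 1.38-fold higher than with FGF2. Its next probe set gave 758 with both factors, 699 with FGF2 and 552 with IL-17A, against 563 in untreated cells, and the dimmest 174 with both factors, 196 with FGF2 and 152 with IL-17A, against 100.0 in untreated cells. All 3 probe sets placed both arrays with FGF2 above untreated cells. They disagreed on the combined array against FGF2 alone, with log2 ratios of 0.46, 0.12 and -0.18. For IL-17A against untreated cells they also differed, at 0.15, -0.03 and 0.60. The spread is 0.21 for the brighter sets and 0.29 for the dimmest, whose untreated signal lay just over the floor. All 3 probe sets can match alternative transcripts of the gene.

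**Figure D2:**
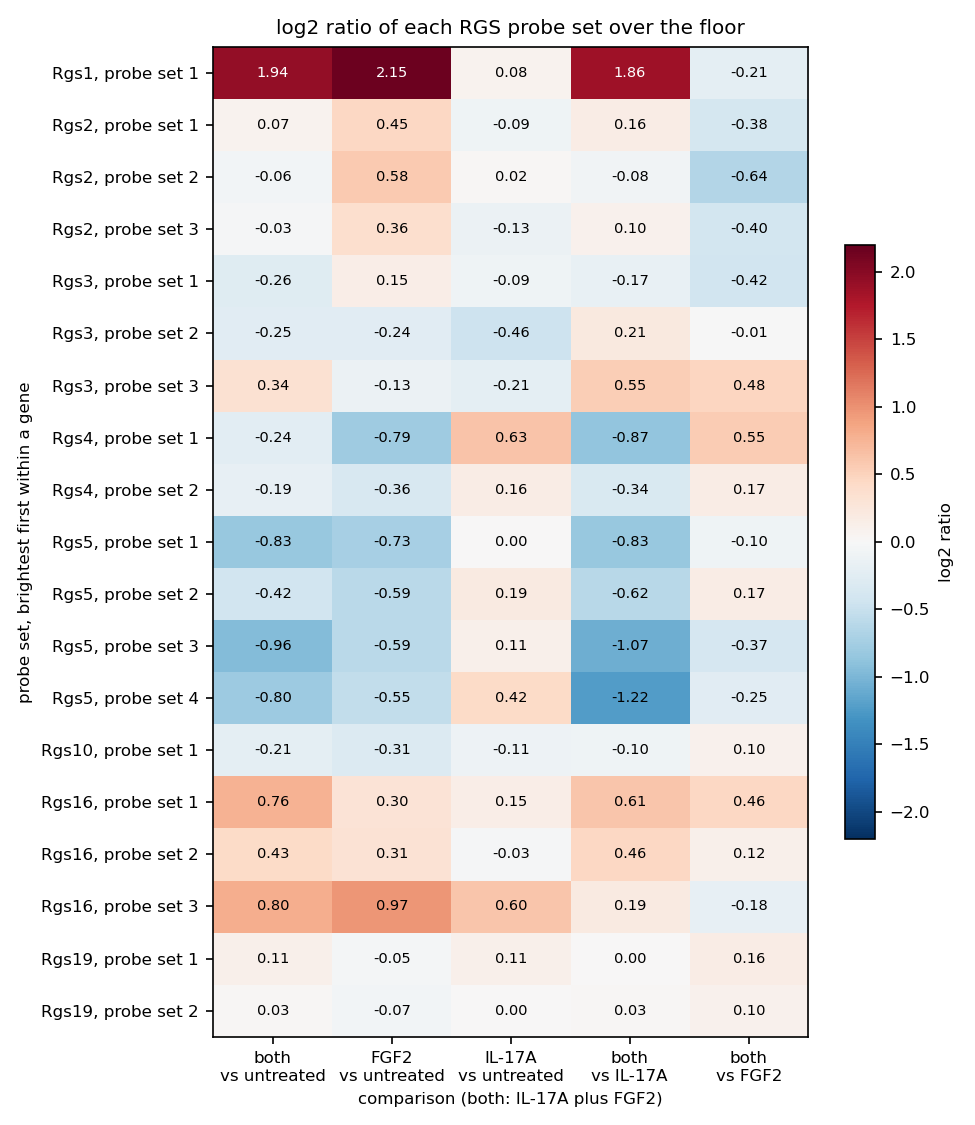
Log2 ratio of each of the 19 RGS probe sets over the floor (rows, brightest first within a gene) in 5 comparisons (columns), as colour and number. Rgs1 is high and all 4 probe sets of Rgs5 are low in the columns that compare arrays with and without FGF2, and the 3 probe sets of Rgs3 differ in sign.

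Rgs5, which marks pericytes and acts on Gi and Gq in the vessel wall, had a signal of 1653 with both factors, 1775 with FGF2 and 2946 with IL-17A, against 2939 in untreated cells. Both arrays with FGF2 were low and both without it were high. Rgs5 was 1.66-fold lower with FGF2 than in untreated cells (log2 ratio -0.73) and 1.78-fold lower with both factors than with IL-17A alone (-0.83), both beyond the spread of 0.13. Its other 3 probe sets had the same direction, though all but the dimmest of them can match related transcripts. For FGF2 against untreated cells they gave log2 ratios of -0.59, -0.59 and -0.55. For both factors against IL-17A they gave -0.62, -1.07 and -1.22, so that 2 of the dimmer sets passed 2-fold where the brightest did not. IL-17A alone against untreated cells gave 0.00 in the brightest set and 0.42 in the dimmest.

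Other pericyte markers were mixed, with 4 of 6 measured above 0 and 2 below for FGF2 against untreated cells. Pdgfrb, the receptor by which pericytes are recruited, had 6076 with both factors, 6049 with FGF2 and 5141 with IL-17A, against 5553 in untreated cells. Kcnj8 and Abcc9, the subunits of the pericyte potassium channel, gave log2 ratios of 0.42 and 0.45 for FGF2 against untreated cells. Notch3 gave -0.75, and Higd1b was under the floor throughout. Over the 6 measured pericyte markers the median was 0.09, and the list's summed signal was 12314 with both factors, 12507 with FGF2 and 10424 with IL-17A, against 10925 in untreated cells. Smooth muscle markers did lie low with Rgs5. All 6 of 6 were below 0 for FGF2 against untreated cells, with a median of -0.76, and all 6 for both factors against IL-17A, with a median of -0.77. Their summed signal was 23176 with both factors, 24919 with FGF2 and 35126 with IL-17A, against 34352 in untreated cells. Cnn1, a calponin of contractile muscle, had 276 with both factors, 334 with FGF2 and 837 with IL-17A, against 889 in untreated cells. The 6 fibroblast markers had medians of -0.48 and -0.61 in these comparisons, and the 6 endothelial markers 0.46 and 0.76. The part of any of these cells in the Rgs5 values was not tested.

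Rgs4 showed both factors in opposite directions. Its brightest probe set had a signal of 258 with both factors, 176 with FGF2 and 472 with IL-17A, against 304 in untreated cells. The IL-17A array was highest and the FGF2 array lowest, with the combination between them and near untreated cells. Rgs4 was 1.55-fold higher with IL-17A than in untreated cells and 1.47-fold higher with both factors than with FGF2 alone (log2 ratios 0.63 and 0.55). It was 1.73-fold lower with FGF2 than in untreated cells and 1.83-fold lower with both factors than with IL-17A (-0.79 and -0.87). The spread for genes this bright is 0.21, and the interaction was -0.08. A dimmer probe set kept the order of the 4 arrays with smaller differences. It had 169 with both factors, 151 with FGF2 and 215 with IL-17A, against 193 in untreated cells. That is 1.11-fold higher with IL-17A and 1.28-fold lower with FGF2 than in untreated cells. The spread for a set this dim is 0.29. Its log2 ratios for IL-17A, 0.16 against untreated cells and 0.17 for both factors against FGF2, lay within that spread. The matching ratios for FGF2, -0.36 and -0.34, lay just beyond it. The last probe set ran at 56.7 with both factors, 50.8 with FGF2 and 80.8 with IL-17A, against 61.7 in untreated cells, under the floor. With the floor at the 75th percentile of signals (465), the log2 ratios of Rgs4 for IL-17A and FGF2 against untreated cells were 0.02 and 0.00. With the mean of its probe sets they were 0.39 and -0.47. Of the markers of enteric glia and neurons, which as well as muscle are relevant to Rgs4, 3 of 5 were above 0 with IL-17A and 2 of 5 with FGF2, with medians of 0.02 and -0.12. Gfap, a filament protein of glia and the list's 1 marker at least 2-fold apart, had 305 with both factors, 168 with FGF2 and 543 with IL-17A, against 476 in untreated cells. Its arrays stood in the same order as those of Rgs4, with a log2 ratio of -1.50 for FGF2 against untreated cells. Sox10, a transcription factor of glia, gave -0.12 and S100b, a calcium-binding protein of glia, -0.38 in that comparison. The part of these cells in the Rgs4 values was not tested.

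**Figure D3:**
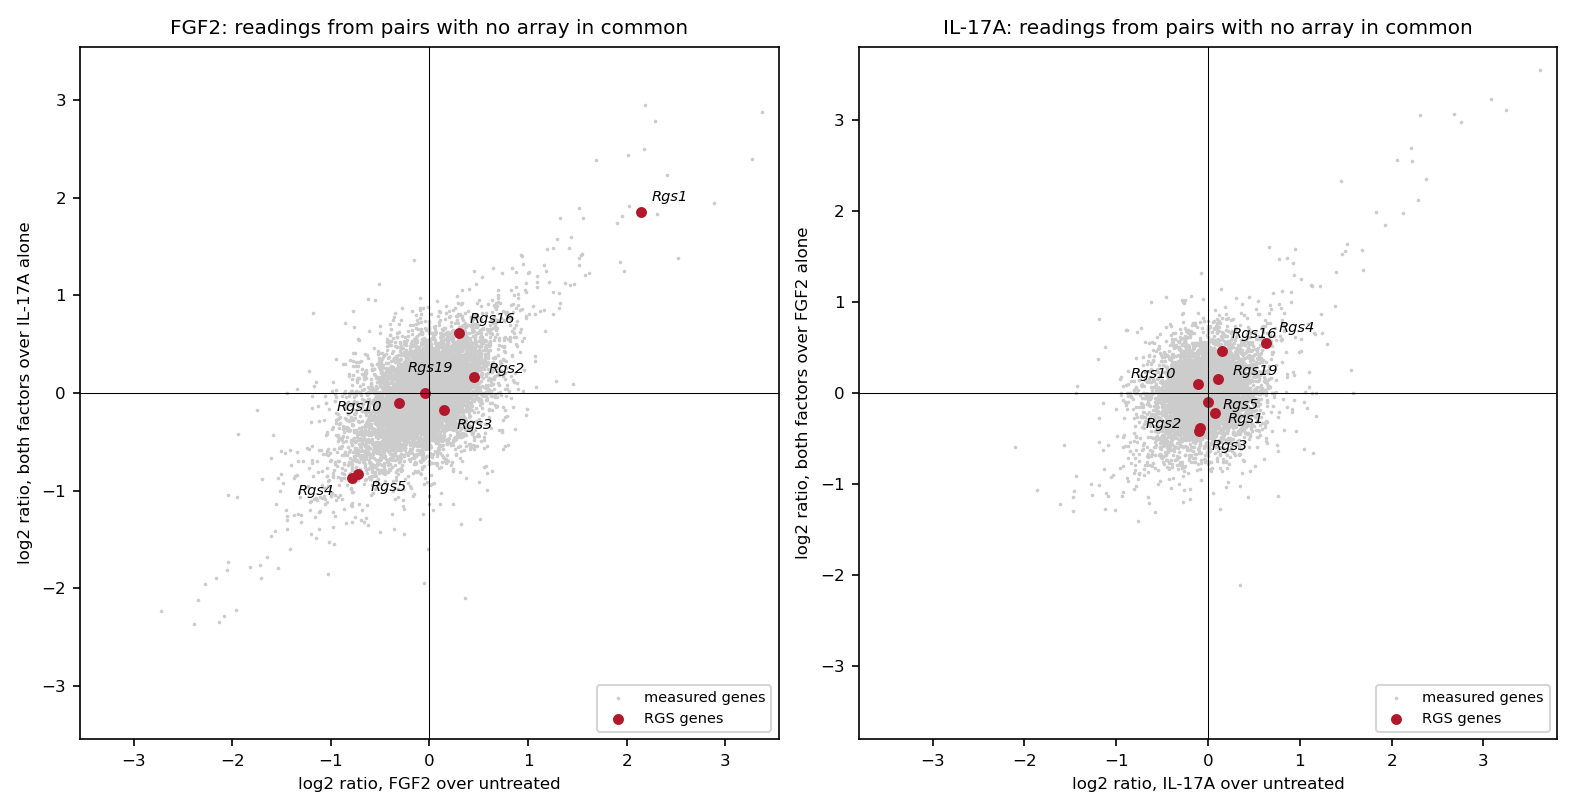
Log2 ratio for each factor alone over untreated cells (horizontal) against the log2 ratio for both factors over the other factor alone (vertical), for FGF2 (left) and IL-17A (right). Grey points are the 12258 measured genes and red points the 8 measured RGS genes. For FGF2, Rgs1 lies at 2.15 and 1.86, Rgs5 at -0.73 and -0.83 and Rgs4 at -0.79 and -0.87, and for IL-17A, Rgs4 lies at 0.63 and 0.55.

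Rgs4 and Rgs5 are neighbours on chromosome 1 and were both lower on the arrays with FGF2. Rgs2 and Rgs16 were higher with FGF2 alone than in untreated cells, and Rgs16 also with both factors. To show what lies before all of these genes, the 250 bases upstream of each start site are printed. They are from RefSeq (GRCm38.p6), 5′ to 3′ on the strand of the gene. The promoter table matched 7 of the 9 members. It had no entry for Rgs1, the member at least 2-fold apart, or for Rgs18. Of the matched members, those named above are printed, and Rgs3, Rgs10 and Rgs19 are not. Capitals mark every match, on either strand, to 6 motifs: the AP-1 site TGANTCA, the cAMP response element core TGACG, the TATA box TATAAA, the CCAAT box CCAAT, the GC box GGGCGG and the serum response element.
Rgs2, chr1:144004150-144004399, minus strand: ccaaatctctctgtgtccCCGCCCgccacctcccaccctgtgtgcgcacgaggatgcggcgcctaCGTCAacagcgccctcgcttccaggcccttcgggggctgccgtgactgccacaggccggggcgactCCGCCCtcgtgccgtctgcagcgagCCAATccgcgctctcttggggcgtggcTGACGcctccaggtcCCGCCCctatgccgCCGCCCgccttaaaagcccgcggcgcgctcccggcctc
Rgs16, chr1:153740103-153740352, plus strand: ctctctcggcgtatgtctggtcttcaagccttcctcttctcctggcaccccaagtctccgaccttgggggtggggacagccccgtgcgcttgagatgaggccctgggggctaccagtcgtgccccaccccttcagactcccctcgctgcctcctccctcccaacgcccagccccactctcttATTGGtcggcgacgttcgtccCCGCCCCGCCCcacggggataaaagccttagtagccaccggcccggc
Rgs4, chr1:169747643-169747892, minus strand: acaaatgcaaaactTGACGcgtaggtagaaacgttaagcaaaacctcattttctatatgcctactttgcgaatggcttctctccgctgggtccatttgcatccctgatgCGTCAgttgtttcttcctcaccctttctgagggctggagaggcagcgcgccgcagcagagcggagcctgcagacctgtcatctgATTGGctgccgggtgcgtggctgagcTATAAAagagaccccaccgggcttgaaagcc
Rgs5, chr1:169655251-169655500, plus strand: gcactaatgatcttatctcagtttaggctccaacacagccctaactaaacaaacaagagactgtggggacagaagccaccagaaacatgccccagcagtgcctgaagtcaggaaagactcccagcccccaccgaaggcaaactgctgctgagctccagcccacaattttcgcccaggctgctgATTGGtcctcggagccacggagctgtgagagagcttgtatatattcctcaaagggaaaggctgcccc

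The cAMP response element core occurred at 2 places in the Rgs2 sequence, from -185 to -181 and from -67 to -63, counted back from the start site, and at 2 in that of Rgs4, from -236 to -232 and from -141 to -137. It is present in 17.8% of all 32851 promoters of this length in the table. Rgs4 also held a TATA box from -31 to -26, a motif of 12.4% of promoters. Each of the 4 sequences held 1 CCAAT box (33.8% of promoters), from -94 to -90 in Rgs2, -68 to -64 in Rgs16, -57 to -53 in Rgs4 and -67 to -63 in Rgs5. GC boxes (32.7% of promoters) numbered 4 in Rgs2 and 2, which overlap by 1 base, in Rgs16. None of the 4 held the AP-1 site, found in 6.75% of promoters, or the serum response element, found in 1.47%. These are matches of letters and not binding sites.

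The other members stood less than 1.5-fold apart in their brightest probe set or were not measured. Rgs3, a member with long and short forms, had 435 with both factors, 581 with FGF2 and 490 with IL-17A, against 522 in untreated cells, in its brightest probe set. Its next sets gave 119 with both factors, 119 with FGF2 and 103 with IL-17A, against 141 in untreated cells, and 141 with both factors, 102 with FGF2 and 96.6 with IL-17A, against 112 in untreated cells. For both factors against untreated cells the 3 sets gave log2 ratios of -0.26, -0.25 and 0.34, so the probe sets of Rgs3 differ in direction there. For IL-17A against untreated cells all 3 were below 0, at -0.09, -0.46 and -0.21. For both factors against FGF2 alone the brightest set gave -0.42, with a spread of 0.21, and the others -0.01 and 0.48. The remaining set was under the floor. Rgs10, a regulator known from microglia and platelets, had 943 with both factors, 882 with FGF2 and 1009 with IL-17A, against 1090 in untreated cells in its only probe set, a log2 ratio of -0.31 for FGF2 against untreated cells with a spread of 0.21. Rgs19, also called GAIP, had 1012 with both factors, 907 with FGF2 and 1012 with IL-17A, against 939 in untreated cells. All 5 log2 ratios of Rgs19 lay between -0.05 and 0.16 in its brightest set and between -0.07 and 0.10 in the other. Rgs18, known from platelets and their precursors, had 2.56 with both factors, 14.0 with FGF2 and 26.0 with IL-17A, against 35.4 in untreated cells in 1 probe set and at most 13.3 in the other, all under the floor, so no ratio is given. Of the 4 platelet markers on the array, Pf4, Ppbp and Itga2b were over the floor on all 4 arrays and Gp9 on none.

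Outside the 9 members, the list of other RGS family and RGS-domain genes had 18 entries, of which 16 are on the array and 8 were measured. Rgs6, Rgs7, Rgs8, Rgs9bp, Rgs11, Rgs13, Rgs14 and Rgs20 never passed the floor. In each of the 5 comparisons 0 of the 8 measured genes stood 2-fold apart, beside 0.604% to 2.64% of all measured genes. The median log2 ratio for FGF2 against untreated cells was 0.23, beside -0.01 over all measured genes. Snx13, a sorting nexin with an RGS domain, had 1836 with both factors, 2052 with FGF2 and 1832 with IL-17A, against 1931 in untreated cells. Rgs17 and Akap10 were picked out after their values were seen. Rgs17, of the same RZ subfamily as Rgs19, had 354 with both factors, 373 with FGF2 and 224 with IL-17A, against 206 in untreated cells, and was 1.81-fold higher with FGF2 than in untreated cells. Akap10, an anchor of protein kinase A, had 657 with both factors, 581 with FGF2 and 538 with IL-17A, against 352 in untreated cells.

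Genes of G proteins and their partners were mostly within 2-fold, as were most measured genes. Over all measured genes, 0.604% to 2.64% stood 2-fold apart in the 5 comparisons, so nothing is read from the counts here. None of the 10 measured alpha subunits, 12 beta and gamma subunits, 11 adenylyl cyclases and phospholipases C beta, 5 receptor kinases and arrestins or 5 other modulators was at least 2-fold higher or lower in any of the 5 comparisons. Their medians for FGF2 against untreated cells were -0.06, 0.05, -0.11, -0.10 and -0.17. Gnas, the alpha subunit that stimulates adenylyl cyclase, had 15145 with both factors, 13751 with FGF2 and 13194 with IL-17A, against 12046 in untreated cells. Gnb1 had 11305 with both factors, 11279 with FGF2 and 10357 with IL-17A, against 10122 in untreated cells. Plcb4, a phospholipase driven by Gq, had 822 with both factors, 675 with FGF2 and 792 with IL-17A, against 979 in untreated cells. Grk6, a receptor kinase, had 1548 with both factors, 1387 with FGF2 and 1391 with IL-17A, against 1183 in untreated cells, and Ric8a, a chaperone of alpha subunits, had 1822 with both factors, 1474 with FGF2 and 1885 with IL-17A, against 1662 in untreated cells.

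Of 21 measured receptors for chemokines, lipids and vasoactive ligands, Ptger2 was the 1 at least 2-fold apart in any comparison. It was counted for FGF2 against untreated cells, beside 1.44% of all measured genes, and for both factors against untreated cells, beside 2.64%. It was also counted for both factors against IL-17A, beside 1.4%. Nothing is read from these counts. Ptger2, the Gs-coupled receptor EP2 for prostaglandin E2, had 1434 with both factors, 1472 with FGF2 and 661 with IL-17A, against 532 in untreated cells. It was 2.76-fold higher with FGF2 than in untreated cells and 2.17-fold higher with both factors than with IL-17A. Its high arrays were the arrays on which Rgs1 was high. F2r, the thrombin receptor, had 6801 with both factors, 6621 with FGF2 and 8027 with IL-17A, against 8472 in untreated cells. The list's median was -0.08 for FGF2 against untreated cells, with 9 of 21 above 0 and 12 below.

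**Figure D4:**
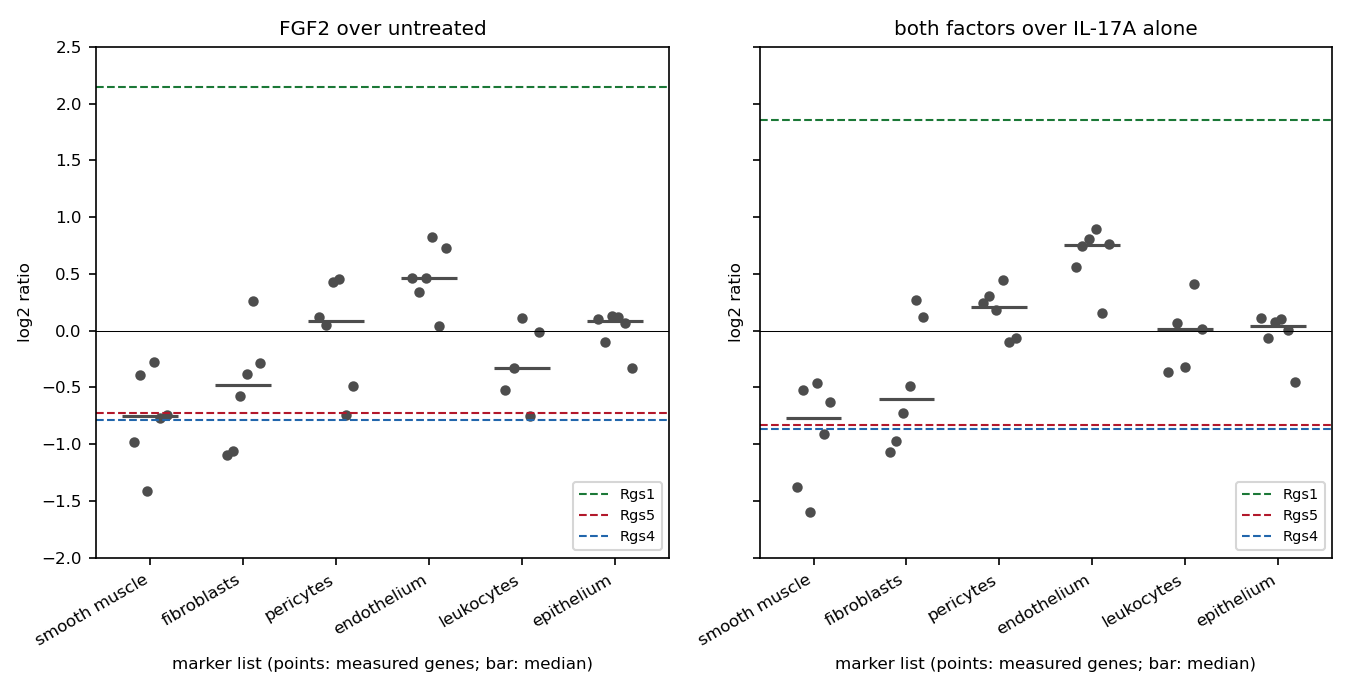
Log2 ratios of the measured markers of 6 cell type lists (points; bars are medians) for FGF2 over untreated cells (left) and both factors over IL-17A alone (right), with the values of Rgs1, Rgs5 and Rgs4 as dashed lines. Rgs5 and Rgs4 lie near the smooth muscle medians of -0.76 and -0.77 and below the pericyte medians of 0.09 and 0.21. Rgs1 lies above every marker shown. Of lists not shown, Cck had 1.90 and 1.74 and Cd14 had 1.61 and 1.22 in these comparisons.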

How the data were processed

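RNA of 4 groups was measured on 1-colour Affymetrix mouse arrays, 1 array per group. Each probe set has a log2 signal, deposited by the authors and made with MAS5, per the submitters' processing notes; its version is not given in the sources used here. The antilogs average 500.003 on all arrays once 2% is trimmed at each end, so arrays were scaled before deposit. MAS5 subtracts mismatch signal, which makes dim values noisy, and the number of arrays limits the precision.

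Of 45101 probe sets, 64 controls were left out, and 34945 had 1 symbol in the platform annotation. Of these, 34741 were found under their Entrez identifier in a GRCm38.p6 table, which changed 0 symbols. A gene is given by its brightest probe set, signals under the median of all signals were raised to it, and 12258 of 18193 genes were measured. Log2 ratios were taken in 5 comparisons with no test and counted at 2-fold. The spread is the root mean square of the interaction divided by the square root of 2, which gives the SD of a log2 ratio. The plan had named division by 2, which gives the spread of a single signal. The members, 7 pathway lists and 16 cell type lists were chosen with earlier results of these data known. The text names all members, any pathway gene at least 2-fold apart, the gene with the highest signal of each pathway list, and the 3 genes nearest by Euclidean distance to each member at least 2-fold apart from untreated cells. Clone and model symbols were left out of that search. Single cell type markers were picked out after their values were seen. Signals of different probe sets were ranked to pick the highest of each list and summed over marker lists, and neither gives relative amounts of transcript. Alternatives were 2 scalings, 3 floors, 2 choices of probe sets and 2 fold thresholds. The calculation was tested on simulated data. Python 3.11.15, numpy 2.4.6, pandas 2.3.3 and matplotlib 3.10.9 were used.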

Additional observations from a re-analysis of the deposited data

How the results depend on the processing

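Under 2 other scalings, 3 other floors and 2 other choices of probe sets, the number of RGS members at least 2-fold apart was the same as reported in each of the 5 comparisons, and Rgs1 was the member counted in the 3 that had 1. With a 1.5-fold threshold the numbers were 3 for FGF2 against untreated cells, 1 for IL-17A, 3 for both factors, 4 for both against IL-17A and 0 for both against FGF2. With a 3-fold threshold they equalled those at 2-fold. The log2 ratio of Rgs1 for FGF2 against untreated cells ranged from 1.99 to 2.24 over 7 alternatives, and that of Rgs5 from -0.74 to -0.62. Of 300 values of single members under these alternatives, 273 moved by less than the spread of their brightness class and 27 by more, 10 of them for Rgs4. Scaling to a common median moved the median log2 ratio of all measured genes for both factors by 0.14 against untreated cells and 0.12 against IL-17A. Under it, Rgs10 for both factors against IL-17A was at 0.02 in place of -0.10, and Rgs19 for FGF2 against untreated cells at 0.04 in place of -0.05. Quantile normalization turned Rgs5 for IL-17A against untreated cells and Rgs19 for both factors against IL-17A to just below 0. Averaging its probe sets put Rgs3 at 0.17 for both factors against each other array, since its mean passed the floor on the combined array alone. Rgs3, Rgs16 and Rgs19 have no value without probe sets that can match alternative or related transcripts. Dim genes are limited by the floor. No paired analysis was possible because each group has 1 array and no replicate number.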

Other observations

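Several RGS genes lie side by side on mouse chromosome 1 in the GRCm38.p6 gene table. In one run the protein-coding order is Rgs2, Rgs13, Rgs1, Rgs21 and Rgs18. Rgs1 was 4.44-fold and Rgs2 1.37-fold higher with FGF2 than in untreated cells. Rgs13 and Rgs18 were under the floor on all 4 arrays, and Rgs21 is not among the genes that the annotation names on the array. In another, Rgs16 lies next to Rgs8, which was under the floor on all 4 arrays. Rgs5 and Rgs4 are neighbours with log2 ratios of -0.73 and -0.79 for FGF2 against untreated cells, and of 0.00 and 0.63 for IL-17A against untreated cells.

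Rgs7bp, an anchor of the R7 subfamily and picked out after its values were seen, had 152 with both factors, 168 with FGF2 and 147 with IL-17A, against 87.1 in untreated cells, the last under the floor.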
